A study of Homo sapiens with 4 samples.

Results

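The serine proteases of the pancreas and of epithelia, with their inhibitors, were examined in RWP-1, an established human pancreatic cancer cell line. Genes were members when their single symbol in the array's annotation began with KLK (the kallikreins), PRSS, CTRB, CTRC, CTRL or CELA (trypsins, chymotrypsins and elastases), TMPRSS (membrane proteases), SERPIN, SPINT or SPINK (inhibitors), followed where it applies by a number. This rule found 20 of the 14884 named genes: the 4 chymotrypsin genes CTRB1, CTRB2, CTRC and CTRL, the 15 numbered kallikreins from KLK1 to KLK15, and the trypsin-like pseudogene PRSS59P. No named probe set had a TMPRSS, SERPIN, SPINK, SPINT or CELA symbol, nor that of a pancreatic trypsin gene, so these genes are not analysed here. Of 145 RefSeq gene symbols that fit the rule, 125 had no named probe set. These also included 39 of 40 PRSS symbols other than the pancreatic trypsins and 1 of 16 KLK symbols. RNA from RWP-1 cells without treatment (Ctrl, 2 arrays) was compared with RNA from RWP-1 cells given rGAL1 (2 arrays). The name rGAL1 is read as recombinant galectin-1, a lectin that cells secrete and that recognises galactose on glycans. Dose, time and vehicle are not given in the labels. Nor do they state that the 2 arrays of a group are separate cultures, so the spread behind the p-values may be purely technical. The array rGAL1 2 is rGAL1 by its title and source name, whereas its treatment field says control, and it was analysed as rGAL1.

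Pancreatic acinar cells make chymotrypsinogens as inactive precursors that trypsin activates in the gut, where they cut dietary protein after aromatic residues. Tissue kallikreins are secreted proteases with the same fold. They act in cascades: in the skin they cut the junctions between shedding cells, in the prostate they liquefy semen, and KLK1 releases kinins from kininogen. Serpins trap such proteases irreversibly, and Kazal and Kunitz inhibitors block their active site reversibly.

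No member passed in the comparison of rGAL1 with Ctrl (limma, adjusted p between 0.919 and 0.998 over the 20 members). Over all 53617 probe sets the share passing was 0%. At an unadjusted p under 0.05 there was 1 member, CTRB1, where 5.24% of all probe sets and 2.98% of named genes reached that level. Means were lower in rGAL1 for 14 of the 20 members (48.3% of all named genes), with a median difference over the members of -0.069 on the log2 scale against 0.0056 over all named genes. In 11 members both rGAL1 arrays lay on the same side of both Ctrl arrays, 4 higher and 7 lower. That separation was found in 37.2% of named genes, 20.2% higher and 17.0% lower. With rGAL1 2 counted as Ctrl it held for 10 members (50.9% of named genes), and without rGAL1 2 for 15 (68.3% of named genes), both chosen after the values were seen. The size of a member's difference, whatever its sign, had a median of 0.13 log2 units, against 0.084 over all named genes. The gap between the 2 arrays of a group had a median of 0.10 over the members in Ctrl and 0.13 in rGAL1. A difference compares means of 2 arrays and a gap compares single arrays, so their sizes are not directly comparable. With 2 arrays a group, an exact two-sided permutation test cannot give a p below 0.333.

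**Figure D1:**
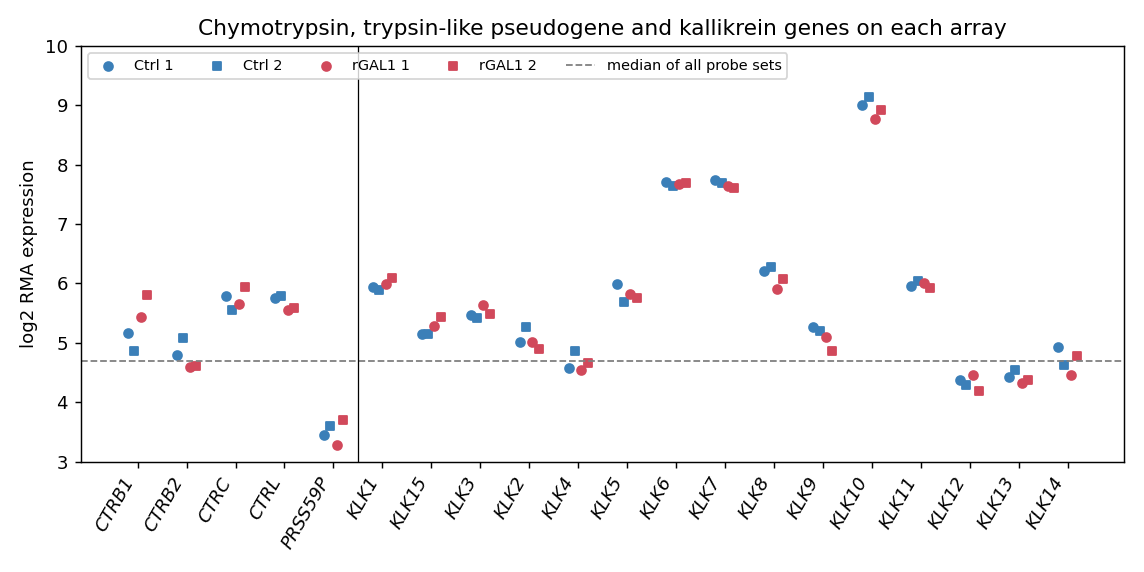
Log2 RMA expression (y axis) of the 20 protease genes (x axis) on each of the 4 arrays, with Ctrl in blue, rGAL1 in red, arrays numbered 1 as circles and arrays numbered 2 as squares; the kallikreins stand in the order of their cluster. The dashed line is the median of all probe sets, 4.70, and the points of PRSS59P, KLK12 and KLK13 lie below it on every array.

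Promoters are shown for 5 members whose values are described next. RefSeq (GRCh38.p14) gave a promoter for 14 of the 20 members; CTRB1, CTRC, CTRL, KLK1, KLK8 and PRSS59P had no entry. Each line below holds the 250 bases before the start of transcription, 5′ to 3′ on the gene's strand, for the most downstream start where there are several. CTRB2 is shown as the chymotrypsin gene, KLK9 and KLK10 as neighbours with lower means in rGAL1, and KLK2 and KLK3 as the androgen-controlled pair of the prostate. Capitals mark matches on either strand to TATAA (core of the TATA box), TTAAAA (a variant of it), CACCTG (an E-box), GGGCGG (GC box), TGANTCA (AP-1 element) or GNACA followed after 4 bases by GTNC (part of a steroid receptor element); matches of different motifs did not overlap.
CTRB2, chr16:75207162-75207411, minus strand: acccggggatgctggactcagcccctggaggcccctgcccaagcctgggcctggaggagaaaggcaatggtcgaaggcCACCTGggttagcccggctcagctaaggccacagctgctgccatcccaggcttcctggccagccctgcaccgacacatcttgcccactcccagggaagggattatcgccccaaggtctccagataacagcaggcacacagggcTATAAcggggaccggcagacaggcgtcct
KLK9, chr19:51009593-51009842, minus strand: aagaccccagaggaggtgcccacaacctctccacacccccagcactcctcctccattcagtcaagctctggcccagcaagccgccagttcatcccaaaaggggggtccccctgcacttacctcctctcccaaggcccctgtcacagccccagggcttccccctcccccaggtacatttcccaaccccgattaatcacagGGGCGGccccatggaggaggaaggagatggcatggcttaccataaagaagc
KLK10, chr19:51019710-51019959, minus strand: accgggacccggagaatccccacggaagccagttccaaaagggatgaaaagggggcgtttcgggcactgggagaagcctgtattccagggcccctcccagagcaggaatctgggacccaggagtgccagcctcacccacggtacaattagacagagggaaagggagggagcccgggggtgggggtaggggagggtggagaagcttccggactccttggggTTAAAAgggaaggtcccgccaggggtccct
KLK2, chr19:50873189-50873438, plus strand: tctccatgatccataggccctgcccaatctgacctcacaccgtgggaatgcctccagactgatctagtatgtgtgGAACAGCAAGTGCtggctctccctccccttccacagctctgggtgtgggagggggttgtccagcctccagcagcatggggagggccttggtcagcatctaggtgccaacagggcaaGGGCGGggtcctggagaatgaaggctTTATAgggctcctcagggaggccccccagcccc
KLK3, chr19:50854665-50854914, plus strand: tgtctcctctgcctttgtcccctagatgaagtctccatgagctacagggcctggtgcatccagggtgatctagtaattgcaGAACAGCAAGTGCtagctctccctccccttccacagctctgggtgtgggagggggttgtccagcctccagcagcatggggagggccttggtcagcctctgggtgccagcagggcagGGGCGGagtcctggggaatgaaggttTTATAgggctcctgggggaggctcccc

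CTRB2 held TATAA at position -29 and CACCTG at position -172, where -1 is the last base before the start and a position gives the first base of a match. KLK10 held TTAAAA at position -30, and KLK9 a GC box at position -51 with no match to TATAA or TTAAAA in this window. KLK2 and KLK3 each held the steroid receptor letters, at positions -175 and -169, and TATAA on the other strand at positions -33 and -27. Their windows were identical at 79.3% of 266 aligned positions, where the median over all 91 pairs of the 14 members was 49.3%, so their matches are not independent. Over the 14 windows, TATAA was found in 6 (18.9% of 35116 promoter windows of the same length), CACCTG in 6 (17.5%), GGGCGG in 8 (42.6%), TTAAAA in 1 (16.4%), TGANTCA in 0 (6.57%) and the steroid receptor letters in 2 (1.81%). These counts used 1 window per gene, and 7 genes had other starts that were not counted. At such a start KLK4 and KLK15 held TATAA, which their counted windows lacked. In the counted windows of KLK7 and KLK14 it lay far upstream, at positions -129 and -238. KLK7 held it at position -27 at another start, and KLK7 and KLK14 each also had a start without it. The percentages are of windows, so they are not directly comparable with counts of genes. A match is a run of letters and was not tested as a binding site.

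Among the chymotrypsin genes, CTRB1 and CTRB2, which lie next to each other on chromosome 16, differed in opposite directions. CTRB1, a chymotrypsinogen, measured 5.16 on Ctrl 1, 4.87 on Ctrl 2, 5.44 on rGAL1 1 and 5.81 on rGAL1 2 (log2). Its mean over the 4 arrays stood at percentile 40.2 of the named genes, and no detection call shows that the transcript was present. Both rGAL1 arrays were higher than both Ctrl arrays, and the arrays within each group lay 0.29 (Ctrl) and 0.37 (rGAL1) apart. The difference was 0.61 (SE 0.18, 95% interval 0.13 to 1.08), or 1.52-fold, and it did not pass (limma, adjusted p = 0.919). It ranged from 0.42 without rGAL1 2 to 0.79 without rGAL1 1, and was 0.16 with rGAL1 2 counted as Ctrl. This difference was already known when the genes were chosen. CTRB2, the second chymotrypsinogen, measured 4.80 and 5.09 in Ctrl and 4.59 and 4.62 in rGAL1. Both rGAL1 arrays were lower and close to the median of all probe sets, 4.70, taken as the mark of a dim value because the table holds no detection call. The difference was -0.34 (SE 0.14, 95% interval -0.69 to 0.01), and it was -0.20 without Ctrl 2 and -0.49 without Ctrl 1. CTRB1 and CTRB2 are near-identical copies, so their probes may bind both transcripts and the split between them is uncertain.

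The other chymotrypsin genes differed less. CTRL, a chymotrypsin-like protease, measured 5.76 and 5.79 in Ctrl and 5.56 and 5.58 in rGAL1. Its arrays were the tightest of this group, the rGAL1 arrays both lower, with a difference of -0.21 (SE 0.098, 95% interval -0.46 to 0.05). CTRC, which also degrades trypsinogen and whose loss is linked to pancreatitis, measured 5.79 and 5.55 in Ctrl and 5.66 and 5.94 in rGAL1. The groups overlapped, the difference was 0.13 (95% interval -0.28 to 0.54), and it was -0.015 without rGAL1 2. Over the 4 genes, 2 means were higher and 2 lower, with a median difference of -0.039. PRSS59P, a transcribed pseudogene on chromosome 7, stayed below the median of all probe sets with 3.45 and 3.61 in Ctrl and 3.28 and 3.70 in rGAL1, a difference of -0.037 (95% interval -0.49 to 0.42).

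**Figure D2:**
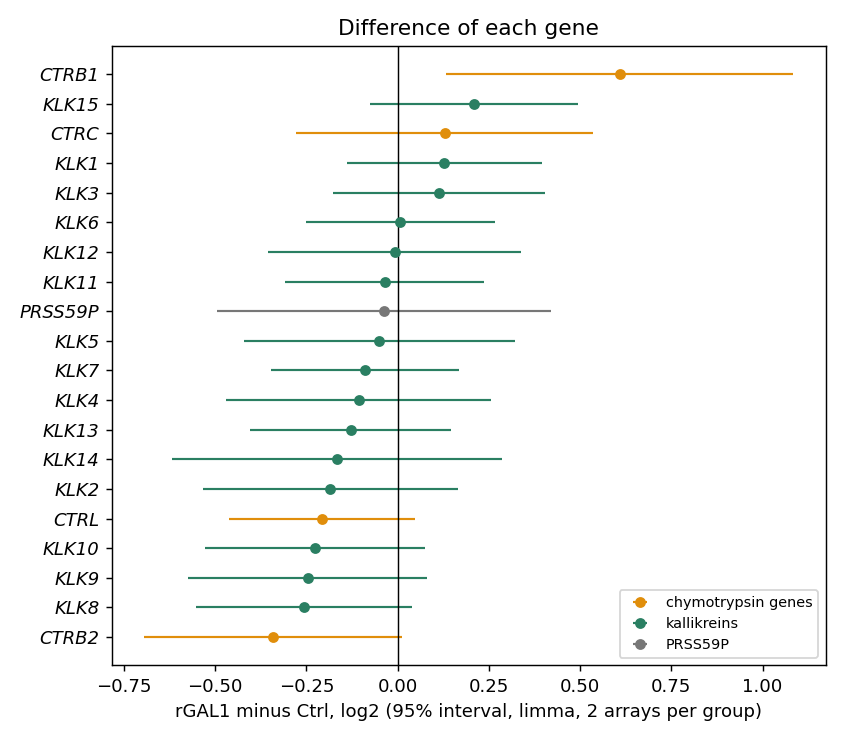
Difference of each of the 20 genes, rGAL1 minus Ctrl on the log2 scale (x axis), with its 95% interval from limma (n = 2 arrays per group), ordered by size. The interval of CTRB1, from 0.13 to 1.08, is the 1 interval that leaves out 0, before any adjustment for the number of probe sets.

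The kallikreins form a single cluster on chromosome 19, where the 15 genes are neighbours with 1 other protein-coding gene between the first and the last. Of the 15, 11 lay above the median of all probe sets in the mean over the 4 arrays, as did 10684 of the 14884 named genes. KLK4, KLK12, KLK13 and KLK14 lay below that median. Means were lower in rGAL1 in 11 genes and higher in 4, with a median difference of -0.089, and 8 genes had groups that did not overlap, 3 higher and 5 lower (37.2% of named genes, 20.2% higher and 17.0% lower). None of the 15 had an unadjusted p under 0.05 (limma). Probe sets differ in how brightly they report a transcript, so the values below are compared between arrays for each gene, and genes are not ranked against each other.

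Of the kallikreins well above the median of all probe sets, KLK6 showed the smallest difference and KLK10 lower values in rGAL1. KLK10, also called NES1, measured 9.003 and 9.14 in Ctrl and 8.78 and 8.91 in rGAL1. Both rGAL1 arrays were below both Ctrl arrays, by 0.090 between the nearest pair, and the difference was -0.23 (SE 0.12, 95% interval -0.53 to 0.08), or 1.17-fold lower. KLK6, a trypsin-like protease abundant in brain, measured 7.70 and 7.65 in Ctrl and 7.67 and 7.70 in rGAL1. The arrays interleaved, with a difference of 0.0071 (95% interval -0.25 to 0.27). KLK7, a chymotrypsin-like protease that cuts the cell junctions of the outer skin, measured 7.74 and 7.69 in Ctrl and 7.64 and 7.61 in rGAL1. Both rGAL1 arrays were lower, with a difference of -0.089 (95% interval -0.35 to 0.17) that was -0.043 with rGAL1 2 counted as Ctrl.

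KLK8, KLK9 and KLK10 are consecutive in the cluster, with a median difference of -0.25. All 3 had rGAL1 arrays below both Ctrl arrays, as did 17.0% of all named genes. KLK8, known as neuropsin for its role in the hippocampus, measured 6.21 and 6.27 in Ctrl and 5.90 and 6.07 in rGAL1. Its difference was -0.26 (SE 0.11, 95% interval -0.55 to 0.04), the lowest among the kallikreins. KLK9 measured 5.27 and 5.20 in Ctrl and 5.10 and 4.87 in rGAL1, a difference of -0.25 (SE 0.13, 95% interval -0.57 to 0.08). The direction of these 3 held without each array in turn, while the size varied: from -0.34 to -0.17 for KLK8, from -0.36 to -0.13 for KLK9 and from -0.29 to -0.16 for KLK10. With rGAL1 2 counted as Ctrl, the difference of KLK9 was near 0 at -0.0084, while KLK8 was at -0.29 and KLK10 at -0.24. The run of 3 was picked out after its values were seen, and no test was made of it.

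At the KLK1 end of the cluster, 3 genes had both rGAL1 arrays above both Ctrl arrays, as did 20.2% of all named genes. KLK1, the tissue kallikrein that releases kinins and is made in the pancreas, measured 5.94 and 5.89 in Ctrl and 6.00 and 6.09 in rGAL1. The groups did not overlap, and the difference was 0.13 (SE 0.10, 95% interval -0.14 to 0.40). KLK15 measured 5.14 and 5.15 in Ctrl and 5.28 and 5.43 in rGAL1, a difference of 0.21 (SE 0.11, 95% interval -0.07 to 0.49). Its Ctrl arrays nearly coincided and its rGAL1 arrays were both higher. Without rGAL1 2, the array whose labels conflict, KLK1 was at 0.081 and KLK15 at 0.13; with that array counted as Ctrl they were at 0.023 and 0.038. KLK3, prostate-specific antigen, measured 5.47 and 5.41 in Ctrl and 5.63 and 5.48 in rGAL1; the nearest arrays of the groups were 0.0038 apart, and the difference was 0.11 (95% interval -0.18 to 0.40), with 0.035 without rGAL1 1 and 0.19 without rGAL1 2. KLK2, which resembles KLK3 and shares the promoter letters printed above, measured 5.01 and 5.27 in Ctrl and 5.02 and 4.89 in rGAL1. Its groups overlapped, with a difference of -0.18 (95% interval -0.53 to 0.16) that was -0.058 without Ctrl 2 and -0.037 with rGAL1 2 counted as Ctrl. KLK4, a protease of enamel maturation, measured 4.57 and 4.86 in Ctrl and 4.55 and 4.66 in rGAL1, a difference of -0.11 (95% interval -0.47 to 0.26) that was 0.036 without Ctrl 2. In cluster order, the first 5 genes (KLK1, KLK15, KLK3, KLK2 and KLK4) had a median difference of 0.11, with 2 of 5 lower. The next 10, KLK5 to KLK14, had a median of -0.11, with 9 of 10 lower. Means were lower in 48.3% of all named genes. This division was made after the values were seen and was not tested.

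**Figure D3:**
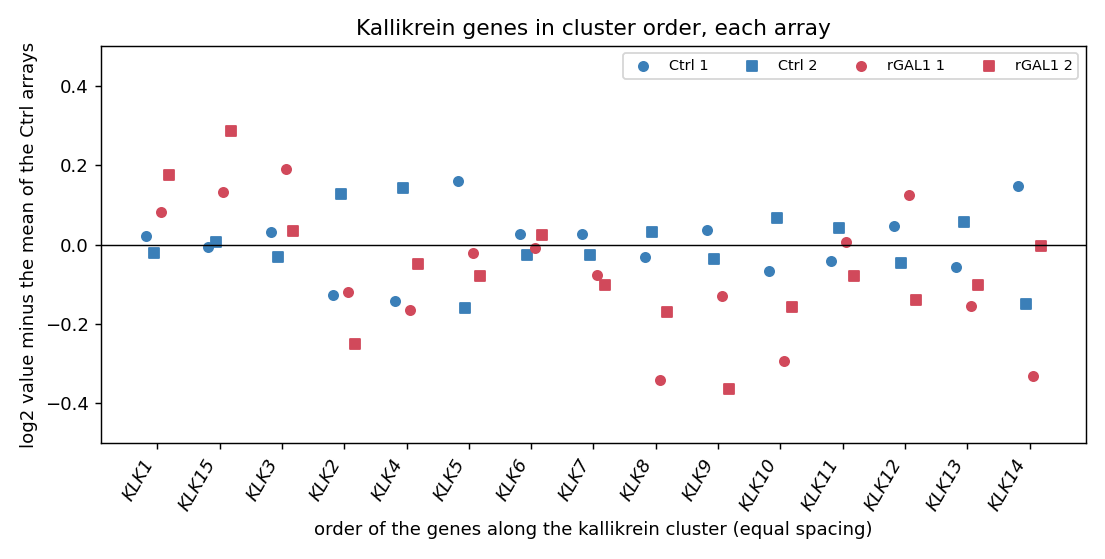
The 15 kallikrein genes in their order along the cluster (x axis, equal spacing), each array's log2 value minus the mean of the Ctrl arrays of that gene (y axis); Ctrl in blue, rGAL1 in red. Both red points lie above the blue ones for KLK1, KLK15 and KLK3, and below them for KLK7, KLK8, KLK9, KLK10 and KLK13.

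The remaining kallikreins differed by less than the spread between arrays or lay near the median of all probe sets. KLK5, a trypsin-like protease that activates other skin kallikreins, measured 6.00 and 5.68 in Ctrl and 5.82 and 5.76 in rGAL1. Its Ctrl arrays enclosed its rGAL1 arrays, the difference was -0.050 (95% interval -0.42 to 0.32), and it was 0.11 without Ctrl 1. KLK11, a trypsin-like protease, measured 5.96 and 6.04 in Ctrl and 6.01 and 5.92 in rGAL1, a difference of -0.035 (95% interval -0.31 to 0.24). KLK14, another trypsin-like protease of the skin, measured 4.93 and 4.63 in Ctrl and 4.45 and 4.78 in rGAL1. Its groups overlapped, and its difference was -0.17 (95% interval -0.62 to 0.29), with -0.0026 without rGAL1 1 and -0.33 without rGAL1 2. KLK13 measured 4.43 and 4.54 in Ctrl and 4.33 and 4.38 in rGAL1, a difference of -0.13 (95% interval -0.40 to 0.15) on dim values that was -0.071 without Ctrl 2. KLK12 measured 4.38 and 4.29 in Ctrl and 4.46 and 4.20 in rGAL1, a difference of -0.0081 (95% interval -0.35 to 0.34) whose sign turned under quantile normalization and under median centring. KLK2, KLK4, KLK12, KLK13 and KLK14 fell outside the rule for named genes and are given because every kallikrein is accounted for.

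**Figure D4:**
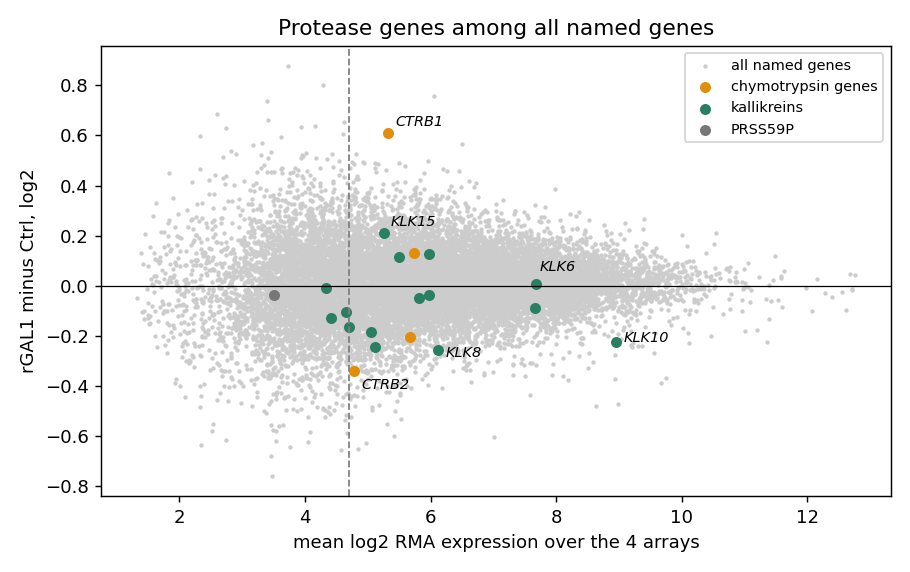
Mean log2 RMA expression over the 4 arrays (x axis) against the difference, rGAL1 minus Ctrl on the log2 scale (y axis), for all 14884 named genes in grey, with the 4 chymotrypsin genes in orange, the 15 kallikreins in green and PRSS59P in dark grey. CTRB1, at 0.61, lies towards the upper edge of the cloud, and the other 19 genes lie between -0.34 and 0.21; the dashed line is the median of all probe sets.

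Genes that work with these proteases were taken from 3 lists. Of 28 other serine and related proteases, 20 were named, 7 with higher and 13 with lower means, and 0 had an unadjusted p under 0.05 or passed (limma; median -0.031). ST14, matriptase, a membrane protease that activates other proteases at the epithelial surface, measured 8.14 and 8.19 in Ctrl and 8.12 and 8.04 in rGAL1, a difference of -0.083 (95% interval -0.35 to 0.18). Of 21 receptors and substrates, such as the protease-activated receptors and the desmosomal proteins, 15 were named, 7 higher and 8 lower, with 0 at an unadjusted p under 0.05 and 0 passing (limma; median -0.0059). Of 14 other protease inhibitors, 12 were named, 7 higher and 5 lower, with 1 at an unadjusted p under 0.05 and 0 passing (limma; median 0.039). That gene was WFDC1, a secreted protein with a protease-inhibitor-type domain, which measured 4.62 and 4.81 in Ctrl and 5.07 and 5.01 in rGAL1. Both rGAL1 arrays were higher, by 0.32 (SE 0.12, 95% interval 0.02 to 0.63), and the gene did not pass (limma, adjusted p = 0.919). TFPI, the inhibitor of tissue factor and a member of both of the last lists, was dim and differed by 0.10 (95% interval -0.47 to 0.67). PLAU, PLAUR and F2RL1 had no named probe set and are not analysed here.

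The cell line was checked against marker genes. Of all 14884 named genes, 10684 lay above the median of all probe sets in the mean over the 4 arrays. Of 12 ductal markers 8 were named, and 7 lay above the median of all probe sets: KRT19 (9.39 to 9.45), SOX9 (10.3 to 10.4) and EPCAM (9.88 to 9.98), which mark ductal and epithelial cells, were well above it on every array, as was ANXA4 (8.02 to 8.15). The others were nearer to it: CA2 lay between 5.79 and 6.07, TFF1 between 5.06 and 5.49, and TFF2 was dim with a mean of 4.60. KRT7, a keratin of ductal cells, measured 5.37 and 5.36 in Ctrl and 4.76 and 5.20 in rGAL1, a difference of -0.38 (95% interval -0.83 to 0.07). Over the 8 named ductal markers, 4 means were higher in rGAL1 and 4 lower, with a median difference of -0.016. Of these, 0 had an unadjusted p under 0.05 (limma). Of 19 acinar markers other than the member genes 11 were named, 5 above that median, with means over the 4 arrays between 3.21 and 6.35, the highest being SYCN (6.35) and RBPJL (6.01). The mean acinar level was 4.58 and 4.64 on the Ctrl arrays and 4.60 and 4.71 on the rGAL1 arrays, and the log2 of the summed level was 8.37 and 8.40 against 8.38 and 8.44; 7 of the 11 had higher means in rGAL1, and 0 had an unadjusted p under 0.05. The part of acinar transcripts in the CTRB1 difference was not tested. RWP-1 is a single cell line. In its bulk RNA, fewer cells making a transcript and less of that RNA per cell cannot be told apart. Of the other lists, 5 of 10 endocrine, 5 of 7 endothelial, 2 of 8 fibroblast and 5 of 10 leukocyte markers were named. Of those named, 3 endocrine, 2 endothelial, 0 fibroblast and 3 leukocyte markers lay above the median of all probe sets. The median differences of these 4 lists, in the same order, were -0.034, -0.020, 0.041 and 0.011. CD68, a lysosomal macrophage marker, was the 1 marker with an unadjusted p under 0.05 (limma, 0.39, adjusted p = 0.919). That level was reached by 2.98% of named genes. CD68 measured 7.71 and 7.88 in Ctrl and 8.13 and 8.23 in rGAL1. Of the 5 leukocyte markers, 3 had higher means in rGAL1 and 2 lower.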

How the data were processed

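The 4 arrays carry log2 expression values per probe set, deposited by the authors. Per the submitters' processing notes the tools were RMA and limma, without versions or settings. RMA removes background, equalises the arrays and combines the probes of a set, which shrinks differences between weak signals. The arrays' median log2 values lay between 4.69 and 4.72. Genes were named from the platform annotation (16098 of 53617 probe sets had 1 symbol). The brightest probe set by the mean of the 4 arrays stood for a gene, and each of the 20 members had 1 probe set. All 20 matched a RefSeq symbol by Entrez ID.

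All probe sets were compared with limma 3.58.1 in R 4.3.3 (lmFit, eBayes, groups only, 2 residual and 2.75 prior degrees of freedom; two-sided p, Benjamini-Hochberg adjustment over 53617 probe sets, threshold 0.05). The script was tested on simulated data. The number of arrays limits the precision: SEs of the members lay between 0.098 and 0.18 log2 units. The members and lists were chosen with earlier results of these data known. Members were named if they had an unadjusted p under 0.05, were among the 5 highest of their role group in Ctrl, were among up to 3 per direction with the largest difference without overlap, or were on a list of well-known genes. Same-numbered arrays did not deviate together (r = -0.048 across probe sets), so numbers were not taken to pair arrays.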

Additional observations from a re-analysis of the deposited data

How the results depend on the processing

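No member passed an adjusted p under 0.05 (limma) in any of the 11 alternative fits, which were quantile normalization, median centring, an intensity trend in the prior, rGAL1 2 counted as Ctrl, each array left out in turn, only probe sets with 1 symbol, only probe sets above the median level, and the replicate block; the replicate block left 0 members called, with a smallest adjusted p of 0.963. At an unadjusted p under 0.05 the count was 1 in place of 0. The kallikrein median kept its sign in the 9 alternatives that gave one, between -0.095 and -0.017; the latter came with rGAL1 2 counted as Ctrl. The chymotrypsin median of -0.039 changed sign without Ctrl 1 (0.015) and without rGAL1 1 (0.039). Signs of some single genes turned, the largest difference among them being that of CTRC at 0.13. Differences of similar or smaller size in KLK1 (0.13), KLK3 (0.11) and KLK7 (-0.089) kept their sign. With rGAL1 2 counted as Ctrl, CTRC was -0.11, KLK5 0.0040, KLK6 -0.017, KLK11 0.034 and KLK12 0.17; KLK12 was also 0.0065 under quantile normalization and 0.0058 under median centring. Leaving out 1 array turned 7 genes, with ranges of -0.015 to 0.27 for CTRC, -0.25 to 0.036 for KLK4, -0.21 to 0.11 for KLK5, -0.020 to 0.034 for KLK6, -0.078 to 0.0075 for KLK11, -0.14 to 0.12 for KLK12 and -0.25 to 0.17 for PRSS59P. The cause was not tested. These fits leave 1 array in a group, assumed to vary like the other group. Averaging all probe sets of a gene gave the same values, since each member has 1.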
